A study of Mus musculus with 2 samples.

Results

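The translation initiation factor genes were taken as the protein-coding genes of the GENCODE vM21 annotation whose name starts with Eif. The rule uses the name and no measured value, but the family was chosen with earlier results of these data known. There were 54, and 1 further gene with such a name was left out by the rule and is not reported here. The 53 on the autosomes and chromosome X were compared with all 21728 coding gene symbols there. The remaining one, Eif2s3y on chromosome Y, had no peak to be assigned, as the optimal peak list held 0 peaks on that chromosome. EP300, a histone acetyltransferase and coactivator found at active enhancers and promoters, had been mapped by chromatin immunoprecipitation and sequencing in liver of B6NCrl mouse embryos at 14.5 days. The tissue was powder from livers of both sexes, combined over several dissections. The 2 libraries, numbered biological replicates 1 and 2, formed 1 group with no second genotype, treatment or age. Both carry the same biosample label, so their spread may be technical. Peaks near a gene are described here by counts and levels beside all coding genes. With 1 group there is no contrast to test, and no p-value is given.

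Initiation factors bring the initiator tRNA, the mRNA and the ribosomal subunits together at a start codon. eIF2 delivers the initiator tRNA and is recharged by the exchange factor eIF2B, which is inhibited when stress kinases phosphorylate the alpha subunit of eIF2. eIF3 is the large scaffold on the small ribosomal subunit, the eIF4 proteins recognise the cap and unwind the mRNA, and eIF5 and eIF5B lead to subunit joining. In the fetal liver, erythroid precursors make globin at a high rate.

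The labelled tissue was checked against marker genes. In the optimal list, a peak summit was found 20 kb or less from a transcription start site (TSS) of all 10 erythroid markers, of 4 of 7 hepatocyte markers (Ttr, Serpina1a and Cebpa had none), of 1 of 4 endothelial markers (Kdr), of 0 of 4 macrophage markers and of 0 of 5 markers of tissues outside the liver, against 38.6% of all coding genes. Within 1 kb it was 9 of 10 erythroid markers and 0 of 7 hepatocyte, 0 of 4 endothelial, 0 of 4 macrophage and 0 of 5 other markers, against 15.5% of all coding genes. In whole liver, the number of cells of a type and the binding per cell cannot be told apart. The optimal list, filtered by the authors for reproducibility between libraries, held 17055 peaks, and each library's own list held 300000. No file gives the number of reads, and depth is unknown. Peak signal is the value the authors deposited, and each list has its own scale. In the optimal list it ran from 5.20 to 570.3 with a median of 38.5.

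The sequences below come from GRCm38 (mm10) around the summit of the strongest optimal peak within 20 kb for eIF2, eIF3, eIF4 and eIF5, and show the words that most distal peaks near these genes shared. Each runs 5′ to 3′ on the plus strand over 150 bases, with the summit at base 76. Capitals mark GATA words, that is GATA with A or T before it and A or G after it, on either strand. None was printed for eIF1, since only 12 bases of its window lay outside exons, and eIF6 had no peak within 20 kb.
Eif2b3, intergenic, chr4:117088062-117088211: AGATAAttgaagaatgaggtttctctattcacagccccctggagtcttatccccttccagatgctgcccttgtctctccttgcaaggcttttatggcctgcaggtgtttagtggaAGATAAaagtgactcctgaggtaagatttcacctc
Eif3d, intergenic, chr15:77974264-77974413: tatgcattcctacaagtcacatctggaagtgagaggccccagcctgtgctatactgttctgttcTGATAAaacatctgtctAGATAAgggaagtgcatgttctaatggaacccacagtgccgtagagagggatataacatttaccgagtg
Eif4g1, in an intron of Clcn2, chr16:20703831-20703980: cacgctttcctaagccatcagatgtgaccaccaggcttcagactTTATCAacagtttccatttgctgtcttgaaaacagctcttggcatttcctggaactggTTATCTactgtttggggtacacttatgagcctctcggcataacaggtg
Eif5, intergenic, chr12:111518051-111518200: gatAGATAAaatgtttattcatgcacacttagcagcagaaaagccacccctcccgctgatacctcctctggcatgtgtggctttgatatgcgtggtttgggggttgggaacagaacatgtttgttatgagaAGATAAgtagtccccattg

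All 4 windows held 2 GATA words. In Eif3d the words were at bases 65 to 70 and 82 to 87, on both sides of the summit, and in Eif4g1 both were on the minus strand. In the Eif5 window the words lay near its ends, at bases 4 to 9 and 132 to 137.

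Peaks at the promoters of these genes looked different. The next windows are those of the 3 strongest promoter peaks and of Eif4ebp1, which was chosen after its values were seen. They are on the plus strand, up to 150 bases long and trimmed to bases outside annotated exons. No GATA word was found in them. Capitals mark GGGCGG or its complement (bound by SP and KLF factors) in Eif5 and Eif4a3, CCAAT or its complement (bound by NFY) in Eif2ak3, and TGATGNAA (the composite element of ATF4 and CHOP) in Eif4ebp1.
Eif5, 58 bp upstream of the TSS, chr12:111537883-111538015: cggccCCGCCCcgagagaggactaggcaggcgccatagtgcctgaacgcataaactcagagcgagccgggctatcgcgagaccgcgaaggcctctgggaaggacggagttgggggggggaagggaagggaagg
Eif4a3, 67 bp upstream of the TSS, chr11:119300090-119300230: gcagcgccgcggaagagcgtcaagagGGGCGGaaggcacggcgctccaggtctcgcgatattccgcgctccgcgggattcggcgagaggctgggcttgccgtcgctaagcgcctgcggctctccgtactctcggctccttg
Eif2ak3, 191 bp upstream of the TSS, chr6:70844249-70844398: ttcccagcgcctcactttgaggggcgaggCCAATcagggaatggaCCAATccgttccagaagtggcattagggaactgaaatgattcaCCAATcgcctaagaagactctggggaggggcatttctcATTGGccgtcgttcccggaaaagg
Eif4ebp1, 885 bp downstream of the TSS, chr8:27261139-27261288: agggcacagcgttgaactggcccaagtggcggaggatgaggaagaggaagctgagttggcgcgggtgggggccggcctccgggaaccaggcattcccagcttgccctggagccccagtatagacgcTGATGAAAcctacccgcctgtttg

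The Eif2ak3 window held 4 CCAAT words, at bases 30, 46, 89 and 127, with the summit at base 76. The Eif4ebp1 window held 1 ATF4 and CHOP element at bases 127 to 134.

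A promoter peak, defined as an optimal summit 1 kb or less from a TSS, was found for 19 of the 53 genes (35.8%), against 15.5% of all coding genes. A summit within 20 kb was found for 29 (54.7%), against 38.6% of all coding genes. Most initiation factor genes start in CpG-rich sequence, so coding genes with a ratio of observed to expected CpG of at least 0.6 within 500 bp of the gene start were taken as a second background. Of these, 25.3% had a promoter peak and 52.9% a summit within 20 kb. Among the 47 initiation factor genes that met the same limit, 17 had a promoter peak (36.2%) and 26 a summit within 20 kb (55.3%). Within 20 kb the share was thus close to that of CpG-rich genes, whereas at promoters it was higher, without a test of either difference. The CpG ratio had a median of 0.824 in the 19 genes with a promoter peak and 0.834 in the 34 without. The strongest promoter peak per gene had a median signal of 33.9, against 36.0 over the 3365 coding genes with one.

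**Figure D1:**
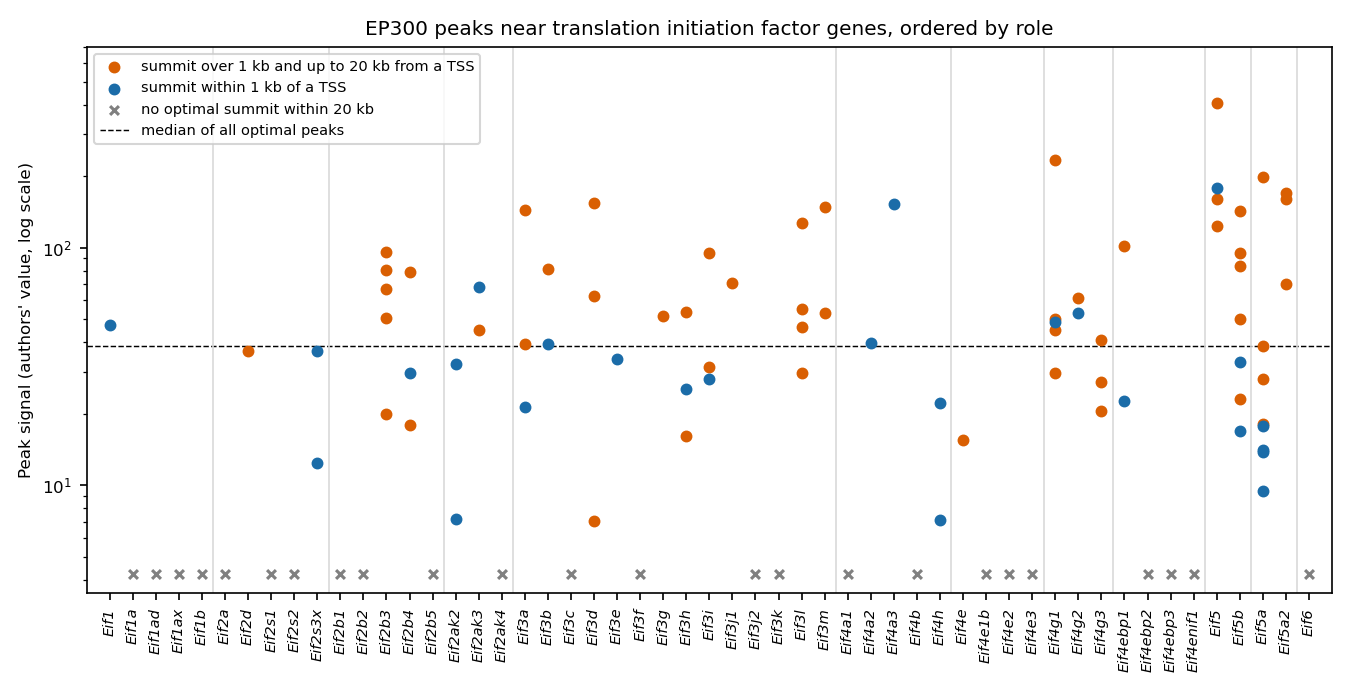
Signal of every optimal EP300 peak within 20 kb of the 53 genes (log axis, authors' value). Points are peaks, blue within 1 kb of a TSS and orange farther away, crosses at the foot mark the 24 genes without a peak, vertical lines separate roles, and the dashed line is the median of all optimal peaks, 38.5. The strongest peak is the orange point at Eif5, 407.4.

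The 5 genes with names starting in Eif1 were grouped under start codon scanning, by name and not by a shown role of each. A promoter peak was found for 1 of the 5, a share of too few genes to set against the 15.5% of all coding genes. Eif1, which keeps the ribosome scanning until a proper start codon is found, had a promoter peak with its summit 24 bp upstream of a TSS (chr11:100320324-100320663, signal 47.2). Its signal was 22.8 in replicate 1 and 26.1 in replicate 2, ranks 7366 and 6795, so it was placed alike in both libraries. Its paralog Eif1b, the eIF1A genes Eif1a and Eif1ax, and Eif1ad had no optimal summit within 20 kb.

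Among the genes for delivery of the initiator tRNA, 1 of 5 had a promoter peak. Here too the genes were too few to set against the 15.5% of all coding genes. The gene with the peak was Eif2s3x, the X-linked gene of the gamma subunit of eIF2. It had a peak of 36.8 on chrX:94212605-94212944 and a weaker neighbour of 12.4. The stronger peak ranked 15609 in replicate 1 and 6748 in replicate 2. Eif2s1 and Eif2s2, the genes of the alpha and beta subunits, and Eif2a had no summit within 20 kb. Eif2d, a factor of noncanonical initiation and recycling, had 1 summit 16752 bp upstream of it, in an intron of the kinase gene Dyrk3 (chr1:131136259-131136598, signal 36.6). That peak ranked 5327 in replicate 2 and had no replicate 1 summit within 100 bp.

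Of the 5 subunits of eIF2B, which recharges eIF2 with GTP, Eif2b3 and Eif2b4 had peaks and Eif2b1, Eif2b2 and Eif2b5 had none within 20 kb. Over all coding genes 38.6% had a summit within 20 kb, and 5 genes are too few to set against that share. Eif2b3 had 5 peaks, with signals of 96.0, 80.6, 66.8, 50.5 and 19.9, none within 1 kb of a TSS and each with a GATA word within 100 bp of the summit. The first, on chr4:117088077-117088233, lay past the 3′ end of the gene, 6856 bp downstream of an annotated Eif2b3 TSS. Its signal was 49.5 in replicate 1 and 47.5 in replicate 2 (ranks 3365 and 3733). For Eif2b4 the strongest peak was intergenic and nearest to Gtf3c2 (chr5:31183719-31184058, 78.7, with library signals of 33.7 and 43.1 and ranks of 5020 and 4111). Its promoter peak of 29.7, 3 bp upstream of a TSS, was also within 1 kb of a TSS of the divergent gene Snx17.

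The eIF2 alpha kinases differed from one another. Eif2ak3, the kinase PERK of endoplasmic reticulum stress, had a promoter peak of 68.5 (chr6:70844154-70844493). Its signal was 34.9 in replicate 1 and 33.8 in replicate 2, ranks 4831 and 5280. An intronic peak of 44.9 lay 7093 bp downstream of a TSS and held a GATA word. Eif2ak2, the interferon-induced kinase PKR, had promoter peaks of 32.4 and 7.18, and the stronger ranked 8015 in replicate 1. Replicate 2 had no summit within 100 bp of it, but had one within 1 kb of a TSS that ranked 14721, with a signal of 11.5. Eif2ak4, the kinase GCN2 of amino acid shortage, had no optimal summit nearer than 202158 bp.

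Among the 14 eIF3 genes, 10 had a summit within 20 kb and 5 of them a promoter peak. Over all coding genes 38.6% had a summit within 20 kb and 15.5% a promoter peak. Over CpG-rich ones the shares were 52.9% and 25.3%. These differences were not tested in a group of 14. The promoter peaks were those of Eif3b (39.1), Eif3e (33.9), Eif3i (27.9), Eif3h (25.4) and Eif3a (21.4), and only that of Eif3b was above the median of the optimal list. The Eif3b promoter peak lay 248 bp upstream of a TSS (chr5:140418910-140419249), with a signal of 16.3 in replicate 1 and 24.6 in replicate 2, ranks 10105 and 7198. The Eif3h peak lay at the start of a short transcript, 74904 bp from the gene's 5′ end, and the Eif3i summit lay 11 bp from the TSS of the divergent gene Tmem234. Eif3c, Eif3f, Eif3j2 and Eif3k had no summit within 20 kb.

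Stronger eIF3 peaks lay away from promoters. The first was 3526 bp upstream of Eif3d, which codes for a subunit that can itself bind the cap (chr15:77974221-77974419, signal 154.4). It reached 79.9 in replicate 1 and 74.3 in replicate 2, ranks 1823 and 2158. A peak of 148.9 lay 6183 bp upstream of Eif3m and 6142 bp from the divergent gene Ccdc73 (chr2:105023138-105023343), with library ranks of 2367 and 1897. Eif3a, the gene of the largest scaffold subunit, had an intergenic peak of 144.5 located 9387 bp upstream (chr19:60799944-60800141), which ranked 2118 and 2302. These 3 peaks were thus found at like ranks in both libraries.

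In 6 more eIF3 genes the strongest peak, of 51.5 to 126.7, was also more than 1 kb from a TSS of the gene. That of Eif3l lay 7415 bp upstream of it but nearer to Ankrd54 (chr15:79067731-79067850, 126.7, ranks 2500 and 2626). An intergenic peak of 94.6 was found 6742 bp downstream of the nearest Eif3i TSS (chr4:129588856-129589195, ranks 4001 and 3609). Eif3b had an intronic peak of 81.2 (chr5:140420628-140420967), 1470 bp downstream of a TSS, with ranks of 4075 and 4865. Intronic peaks of Eif3j1 (chr2:122036259-122036346, 71.0, ranks 4008 and 5827) and Eif3h (chr15:51828905-51829244, 53.6, ranks 10116 and 4779) also held GATA words. The only peak near Eif3g, 51.5 without a GATA word, was at the promoter of Ppan, 7103 bp away.

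The eIF4 genes were split by role, into groups too small to set against the shares of all coding genes. Of the helicase genes, Eif4a3, whose product is also a core subunit of the exon junction complex, had the second strongest promoter peak of the family, 153.2 (chr11:119300059-119300191). Its signal was 76.9 in replicate 1 and 67.9 in replicate 2, ranks 1935 and 2456. Eif4a2 had a promoter peak of 39.8 (chr16:23107334-23107673), ranked 13159 in replicate 1 and 6287 in replicate 2. The helicase cofactor gene Eif4h had promoter peaks of 22.2 and 7.12. The stronger ranked 10757 in replicate 2 and had no replicate 1 summit within 100 bp, and the weaker ranked 97053 and 29234. Eif4a1, the main helicase of cap-dependent initiation, and the cofactor gene Eif4b had no optimal summit within 20 kb.

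Of the 4 cap-binding protein genes, Eif4e2, Eif4e3 and Eif4e1b had no summit within 20 kb. Eif4e itself, the cap-binding subunit, had 1 weak intronic peak 4434 bp downstream of a TSS (signal 15.5, chr3:138531560-138531899). It ranked 16029 in replicate 1 and had no replicate 2 summit within 100 bp.

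All 3 genes of the eIF4G scaffold had peaks. They are too few to set against the 38.6% of all coding genes with a summit within 20 kb. At Eif4g1 the promoter peak of 48.8 (chr16:20673905-20674244) lay at an internal TSS, 5762 bp from the gene's 5′ end, with ranks of 11351 and 5865. The strongest peak within 20 kb was 233.1, 14928 bp downstream of an Eif4g1 TSS in an intron of the chloride channel gene Clcn2 and 4828 bp from a Clcn2 TSS (chr16:20703772-20704029). It had a signal of 124.2 in replicate 1 and 108.6 in replicate 2, ranks 788 and 1143. Eif4g2, which codes for the eIF4G relative DAP5, had a promoter peak of 52.8 (chr7:111083025-111083364, ranks 6207 and 7500) and a peak of 61.5 located 2310 bp upstream (chr7:111085170-111085509, ranks 4571 and 6643). Eif4g3 had 3 peaks inside the gene, of 40.7, 27.2 and 20.5, and those of 40.7 and 27.2 held GATA words. The first (chr4:138016016-138016355) ranked 12544 in replicate 1 and 6561 in replicate 2.

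The genes of eIF4E inhibitors and of its transporter gave 1 gene with peaks out of 4. These are too few genes to set against the 38.6% of all coding genes with a summit within 20 kb. Eif4ebp1, a repressor that binds eIF4E until it is phosphorylated, had an intronic peak of 101.9 located 6560 bp downstream of a TSS (chr8:27270804-27271143). Its signal was 57.7 in replicate 1 and 46.1 in replicate 2, ranks 2828 and 3826. The weaker peak of 22.6 with the ATF4 and CHOP element ranked 15491 and 27966. Eif4ebp2, Eif4ebp3 and Eif4enif1, whose product carries eIF4E into the nucleus, had no summit within 20 kb.

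The strongest peak of the family lay near Eif5. Eif5, the GTPase-activating protein of eIF2, had 4 peaks, of which the first, 407.4, ranked 94 in the whole optimal list (chr12:111517949-111518277). This peak was intergenic and 19890 bp upstream of the TSS, with no other coding TSS nearer. Its signal was 196.0 in replicate 1 and 210.0 in replicate 2, ranks 133 and 82. The Eif5 promoter peak was 177.8 (chr12:111537901-111537995), the strongest promoter peak among these genes and higher than those of 93.7% of coding genes with one, with library ranks of 2126 and 1195. Another peak, of 159.7, lay 2589 bp upstream, and one of 123.2 lay 16032 bp downstream at the start of the noncoding gene Gm48248. Signal at the Eif5 locus was therefore high in both libraries at all 4 positions, where the library ranks ran from 82 to 3228.

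Eif5b, the GTPase of subunit joining, had 7 peaks. The strongest, 142.7, was intronic and 13677 bp downstream of a TSS (chr1:38011713-38011875), and its signal was 57.9 in replicate 1 and 82.0 in replicate 2, ranks 2816 and 1879. It held no GATA word, nor did the next, of 94.5, which lay 16640 bp downstream. Intronic peaks of 84.0 and 49.8 did. The stronger of its 2 promoter peaks, of 32.9 and 16.9, lay 19 bp upstream of the TSS, and both were also within 1 kb of a TSS of the divergent gene Txndc9.

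Eif5a, which codes for the hypusine-containing factor that helps ribosomes through difficult peptide bonds, had 8 peaks within 20 kb. Its 4 promoter peaks were all weak, from 9.46 to 17.7. Its strongest peak, 197.8, lay 1898 bp downstream of a TSS and 365 bp from a TSS of the neighbouring gene Gps2 (chr11:69916293-69916511, ranks 1536 and 1088). The paralog Eif5a2 had no promoter peak but 3 peaks at 4565 to 5744 bp upstream, in an intron of the gene 1700112D23Rik. Those of 169.1 (chr3:28776039-28776254) and 159.5 ranked between 1650 and 2041 in both libraries. Eif6, which keeps the large ribosomal subunit from joining too early, had no optimal summit nearer than 120860 bp.

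Together the family had 78 distinct peaks within 20 kb, 26 of them within 1 kb of a TSS of the gene. Another 11 lay at the TSS of a different gene and 41 were distal, that is, over 1 kb from any annotated TSS. The distal peaks had a median signal of 66.8, against 42.2 over all 12570 distal optimal peaks. The 41 lay within 20 kb of a coding TSS and the 12570 at any distance, so the sets are unlike. Of the 41, 33 exceeded the median of the whole list, 38.5, which the median of all distal peaks also exceeded. The difference was not tested. A distal peak within 20 kb was found for 20 genes (37.7%), against 26.7% of all coding genes. This share was not compared with CpG-rich genes. The 20 kb window does not assign a peak to a gene: of the 41 distal peaks, 29 had the initiation factor gene as the nearest coding TSS and 18 lay inside it. In 21 of the 29 genes with a peak, the strongest was not within 1 kb of a TSS of the gene. Over all coding genes, 8386 had a summit within 20 kb and 3365 had one within 1 kb. Most coding genes with a peak thus had none at a promoter, whereas this held for 10 of the 29 initiation factor genes. Where the strongest peak of a gene lay was not counted over all coding genes, so the 21 of 29 have no background.

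**Figure D2:**
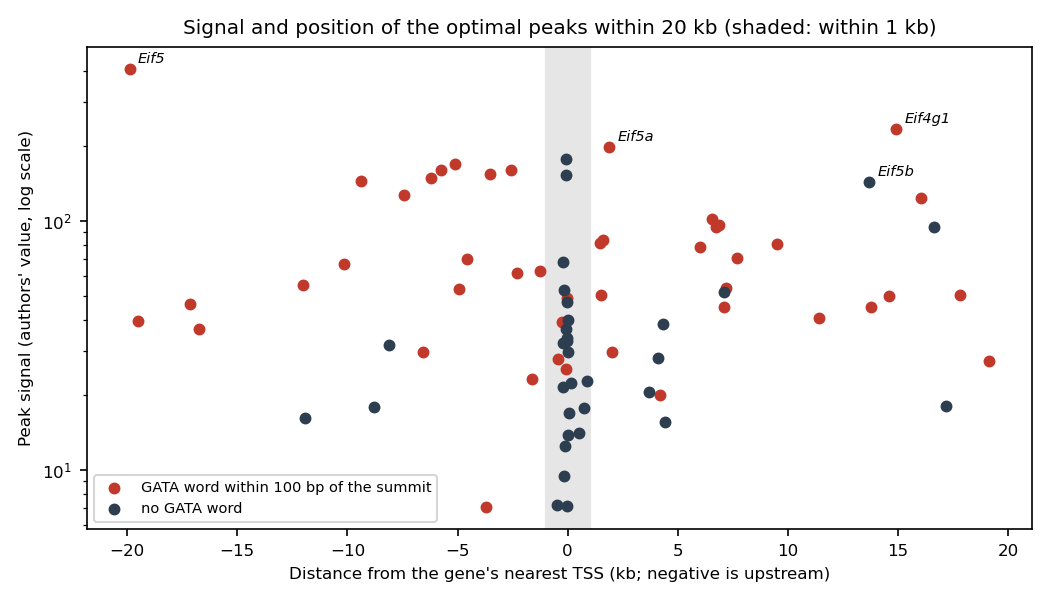
Signal (log axis, authors' value) against distance of the summit from the nearest TSS of the gene, in kb, for the 78 peaks. Red points have a GATA word within 100 bp of the summit and dark points have none. Inside the shaded promoter zone most points are dark, and only those at Eif5 and Eif4a3 exceed a signal of 100.

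Promoter summits were close to the TSS. In the strongest promoter peak of each gene, the distance was 70 bp in the median, at most 250 bp in 16 of 19 genes, and 885 bp at Eif4ebp1, the farthest. The summit was upstream in 15 genes and downstream in 4. The gene just outside the 1 kb window was Eif3d, with a peak of 62.6 at 1257 bp. At the 20 kb window the Eif5 peak of 407.4 was just inside, at 19890 bp, and Eif4a1 just outside, with a peak of 17.0 at 20357 bp.

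A GATA word lay within 100 bp of the summit in 37 of the 41 distal peaks (90.2%), against 86.3% of all distal optimal peaks. At promoters it was present in 4 of 26 peaks (15.4%), against 42.1% of all 4473 promoter peaks. Those include peaks at TSSs of noncoding genes, and the share was 38.3% of the 3923 at coding genes. Counting the strongest promoter peak per gene gave 4 of 19 (21.1%), against 37.3% of coding genes with a promoter peak and 31.1% of those with a CpG-rich start. The 4 were Eif3b, Eif3h, Eif3i and Eif4g1, and at Eif3h and Eif4g1 the TSS was an internal one. A composite of a partial E-box and GATA, the word CTG followed at 7 to 9 bases by GATAA, occurred in 13 of the 41 distal peaks (31.7%), against 24.9% of all distal peaks.

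Counted over peaks, several other words were found in the promoter peaks at shares close to those in all promoter peaks. GGGCGG was in 38.5% against 31.5%, CCNCNCCC (the CACCC box of KLF factors, which can overlap GGGCGG) in 42.3% against 39.1%, CCAAT in 26.9% against 25.3% and the E-box CANNTG in 57.7% against 56.1%. Counting the strongest promoter peak of the 19 genes, GGGCGG was in 47.4% against 37.0% of coding genes with one, and the CACCC box in 52.6% against 42.3%. By the same count CCAAT was in 26.3% against 27.4% and the E-box in 52.6% against 53.6%. These differences were not tested. The ETS word CCGGAAG was in 2 of 26 peaks, at Eif1 and Eif2b4, CACGTG, which is also an E-box, in 2, and AANATGGCG (YY1) and GCGCATGC (NRF1) in 1 each. TGACGTNA, the cyclic AMP response element, was in 0 of 26 and in 2.62% of all promoter peaks. TGATGNAA had a higher share than in all promoter peaks, 3 of 26 (11.5%) against 2.46%, a difference of few peaks that was not tested. The 3 were at Eif1, Eif2s3x and Eif4ebp1. All words were searched on both strands, and a match is a run of letters and not a shown binding site.

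**Figure D3:**
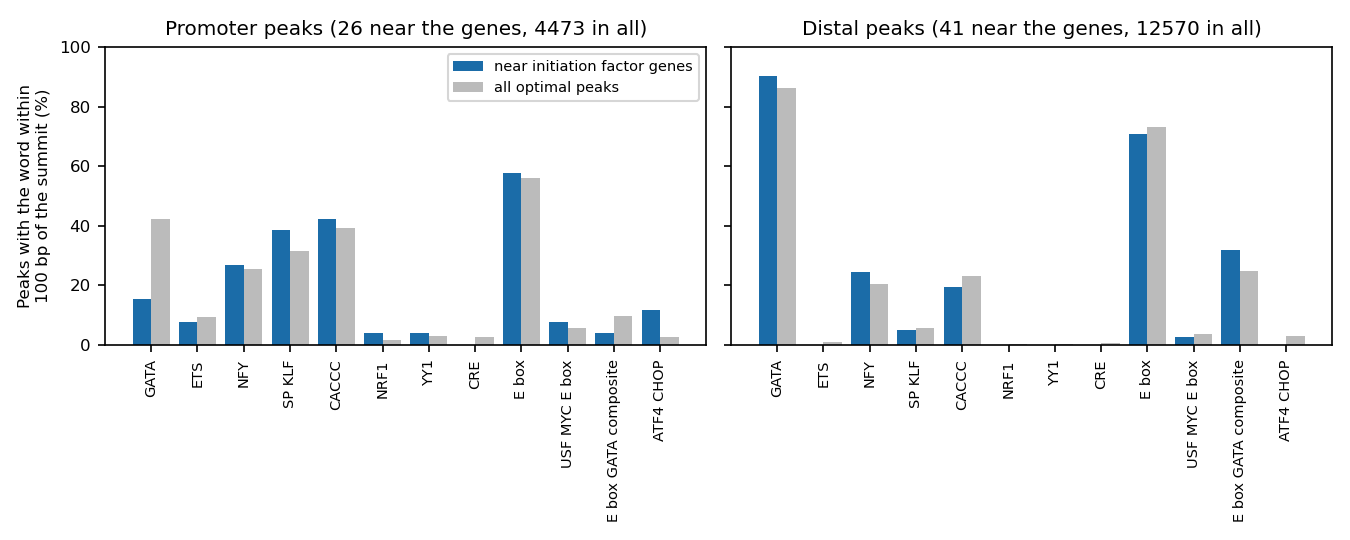
Share of peaks (%) with each word within 100 bp of the summit, for promoter peaks on the left and distal peaks on the right. Blue bars are the peaks near initiation factor genes and grey bars are all optimal peaks. At promoters the GATA bar is 15.4% against 42.1%, and at distal peaks 90.2% against 86.3%.

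The 2 libraries were compared peak by peak. Both had a summit within 100 bp of 67 of the 78 peaks, and in both the matching peak was among that library's 17055 strongest in 54. Across the 67 peaks the library signals had a Spearman's rho of 0.827, a description over peaks that were chosen for reproducibility and that share their libraries. The matching peak was among the strongest of both libraries for 13 of the 26 promoter peaks and for 41 of the 52 others. Of the 26, 6 lay within 500 bp of a stronger peak.

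**Figure D4:**
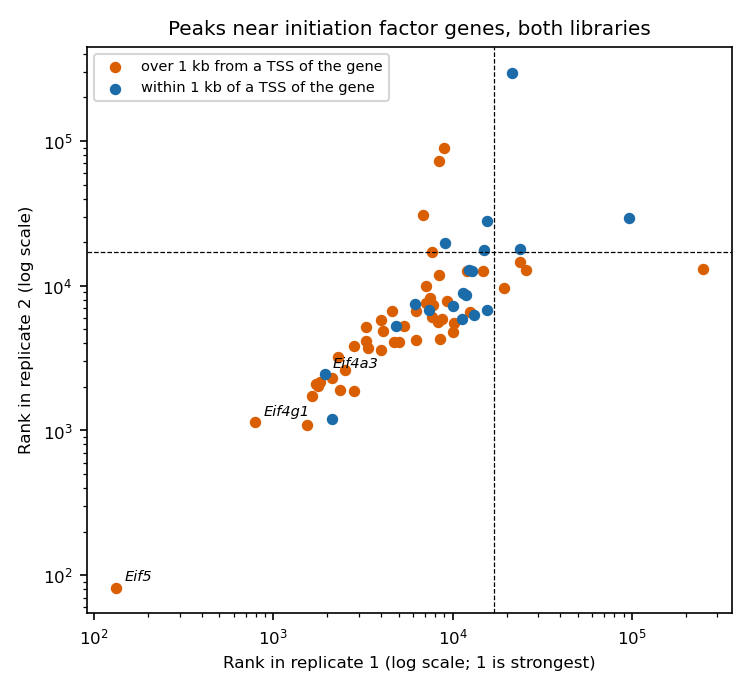
Rank of each of the 67 peaks in replicate 1 and replicate 2 (log axes, 1 is the strongest). Blue points are within 1 kb of a TSS of the gene and orange points farther away, and dashed lines mark rank 17055. The Eif5 peak, at 133 and 82, stands at the lower left.

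Absence from the optimal list did not always mean absence of signal at a promoter. In the pooled list of 300000 peaks, a summit lay within 1 kb of a TSS in 40 of the 53 genes (75.5%), against 53.2% of all coding genes. The pooled share of CpG-rich coding genes was not counted. Eif1ad had a pooled promoter peak of 29.8 that ranked 10741, and its promoter ranked 12326 in replicate 1 and 8729 in replicate 2. Eif4a1 had one of 19.05, with library ranks of 10753 and 12324. Eif2s1 (pooled signal 16.9) and Eif3d (16.0) were likewise among the 17055 strongest of both libraries at their promoters, yet none of these 4 had an optimal promoter peak. All 4 and Eif4e had one in the authors' conservative list, which is not a subset of the optimal one, while Eif4ebp1 and Eif4h had an optimal but no conservative promoter peak.

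Further down, the pooled promoter signals of the genes without an optimal summit within 20 kb were 15.8 at Eif4b, 12.3 at Eif3c, 10.3 at Eif2s2, 9.14 at Eif6, 8.97 at Eif1a, 8.64 at Eif1ax, 7.73 at Eif3k, 6.89 at Eif1b, 6.32 at Eif2a, 5.89 at Eif4ebp2 and 5.66 at Eif4e2. Those of Eif1b, Eif2a, Eif4ebp2 and Eif4e2 ranked 119090, 162228, 205800 and 234281 among the 300000 pooled peaks, so they were weak there. The libraries did not always agree at such promoters. Eif3k ranked 9633 in replicate 1 and 185524 in replicate 2, and Eif2a 105719 and 16161. Eif1b ranked 18636 in replicate 1, whereas Eif4ebp2 and Eif4e2 ranked no higher than 49130 in either library. Replicate 2 had no summit within 1 kb of a TSS of Eif1a or Eif1b, nor had replicate 1 for Eif1ax or Eif4e2. In 10 of the 24 genes without an optimal summit within 20 kb, the pooled list had no summit within 1 kb either. They were Eif2ak4, Eif2b1, Eif2b2, Eif2b5, Eif3f, Eif3j2, Eif4e1b, Eif4e3, Eif4ebp3 and Eif4enif1. Eif3j1, Eif3l and Eif5a2 also had none at their promoters, although the strongest distal optimal peak of each was 71.0 or more.

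**Figure D5:**
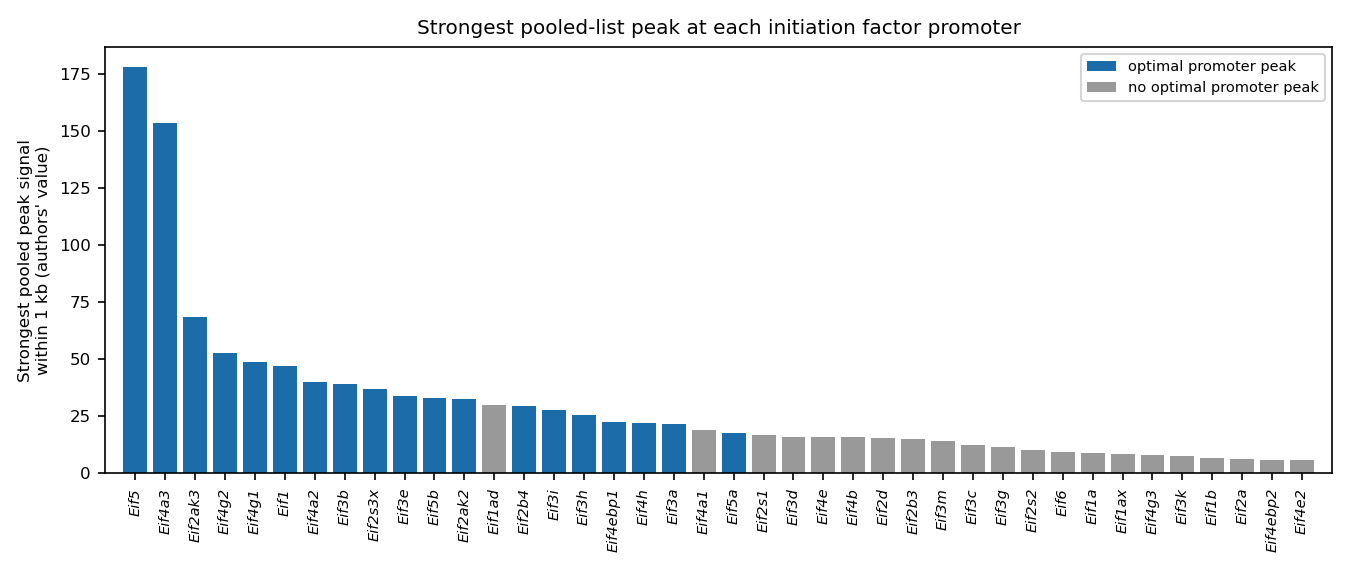
Strongest peak of the pooled list within 1 kb of a TSS for the 40 genes that had one (linear axis, authors' value), in order of signal. Blue bars have an optimal promoter peak and grey bars do not. Eif1ad, at 29.8, is the highest grey bar and stands among blue ones.

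A feature that the choice of genes did not use was the small nucleolar RNA (snoRNA) genes inside some of them. Of the 53 genes, 7 contained an annotated snoRNA or related small Cajal body RNA gene on the same strand, and 6 of these had a promoter peak: Eif2ak3, Eif3a, Eif4a2, Eif4g1, Eif4g2 and Eif5. Eif4a1 was the exception, with the pooled peak given above. Over all 278 coding genes that contain such a gene, 34.2% had a promoter peak. The 7 genes are too few to set against that share, and the count was made after the values were seen.

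Genes of the later steps and the control of translation were set beside the family, from a list of 59 names of which 57 were in the annotation. A promoter peak was found for 31 of the 57 (54.4%) and a summit within 20 kb for 45 (78.9%). The shares over all coding genes were 15.5% and 38.6%, and over CpG-rich ones 25.3% and 52.9%. How many genes of the list are CpG-rich was not counted. Both shares of the list were also higher than among the initiation factors, a difference that was not tested. This list too was chosen with earlier results of these data known. In elongation, 5 of 9 genes had a promoter peak, with Eef2k, the kinase that inhibits elongation, at 276.2, but the abundant elongation factor gene Eef2 at 23.7. Among regulators of the cap and the poly(A) tail and genes of the TOR pathway, 6 of 13 had one, and the strongest peak within 20 kb was 375.2 near the poly(A)-binding protein gene Pabpc4. In the integrated stress response, the program set off by eIF2 phosphorylation, 5 of 6 had a promoter peak: Ddit3 (77.8), Ppp1r15b (63.5), Ppp1r15a (31.6), Atf5 (27.9) and Atf4 (27.9). In termination and recycling it was 3 of 8, with Denr at 355.5, and among tRNA synthetase genes and their partners 12 of 21, with Cars at 202.7.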

How the data were processed

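EP300 was mapped by ChIP-seq in 2 libraries of embryonic mouse liver. Each library had its own peak list, made from filtered alignments and its own control file, per the deposited file listings. A pooled list used both libraries, and the optimal and conservative lists were derived from these on assembly mm10, with aligner, peak caller and cutoffs not given in the sources used here. The signal deposited by the authors is 1 value per peak, on the scale of its own list. The summit is column 2 plus column 10.

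Of 17055 optimal peaks, 12 on unplaced contigs were left out. TSSs were all annotated transcript starts of GENCODE vM21, and gene loci with 1 symbol were merged. Sequence came from GRCm38.p6, whose letters matched 653 of 653 RefSeq promoter sequences checked. Library matches were the strongest summit within 100 bp. Python 3.11.15 and pandas 2.3.3 were used, and the window and word searches were tested on simulated data.

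The genes and lists were chosen with earlier results of these data known. Named with full values were the strongest gene of each factor, the 8 strongest promoter peaks and genes whose strongest peak was distal with a GATA word. Alternatives covered peak lists, windows, TSS sets and each library alone. The CpG-rich background and a minimum signal of 10 were added after seeing the data. One gene is not reported here.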

Additional observations from a re-analysis of the deposited data

How the results depend on the processing

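The count of genes with a promoter peak, 19, became 8 with only the optimal peaks above the median signal (15.1% of the genes, against 7.18% of all coding genes). Under the other 10 settings tried it stayed within 1.5 times, from 17 with the gene's 5′ end as its only TSS to 25, and from 23 to 25 with either library left out. The count within 20 kb, 29, ran from 20 with distal peaks alone to 39 with a 50 kb window, and was 33 to 35 with either library left out. In each of these settings the share of the genes exceeded that of all coding genes. None of the settings was set against CpG-rich genes alone, where the main 20 kb shares were close, 55.3% against 52.9%. Promoter summits among the strongest of both libraries were found for 19 genes (35.8%), against 12.6% of all coding genes. With 2 times as many peaks they were found for 25 (47.2%), against 18.5%. The 19 are not the same set as the 19 genes with an optimal promoter peak, and 15 genes were in both sets. Eif3a, Eif4ebp1, Eif4h and Eif5a had an optimal promoter peak but no promoter summit among the strongest of both libraries. The median promoter signal cannot be compared across lists, whose scales differ, and was 14.3 to 19.5 in single libraries. Words within 50 bp in place of 100 bp of the summit were fewer here and over all promoter peaks for CCAAT (3 of 26), the CACCC box (6), GGGCGG (6), the E-box (8), CACGTG (1), GCGCATGC (0), TGATGNAA (2) and GATA (3). No paired analysis was possible because the 2 libraries form 1 group. Depth is unknown, and a gene without an optimal peak may have one below the authors' threshold.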
